A study of Mus musculus with 35 samples.

Results

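A group of 115 genes was chosen because each had a higher RNA level in Tet3 catalytic-mutant (Tet3 m/m) than in wild-type (Tet3+/+) neuroectoderm (NE) cells in each of 3 experiments. They are 115 of the 16932 genes measured in all 3 experiments, or 0.679%. For each gene, the mean of log2(normalized count + 1) had to be at least 1 higher in the mutant on day 3, with the empty vector of the Dnmt1 experiment and with the empty vector of the Tet3-CD experiment, and the mean mutant value had to be at least 50 in each. A further 13 genes with symbols starting with Zfp9 met these limits and were left out. These mutant and wild-type values chose the genes, so they are given below as a description. The knockout (Tet3-/-) samples and the Dnmt1- and Tet3-CD-transfected samples were not used in the choice.

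All cells were derived from V6.5 mouse embryonic stem cells (ESCs), a male line, and were differentiated without LIF in the presence of 1 µM retinoic acid. The labels give 72 h for every sample. The study's methods describe Tet3-CD transfection partway through differentiation and a collection later than 72 h, so the stage of the Tet3-CD samples is uncertain, and they describe blasticidin selection of the cells in the Dnmt1 experiment. The mutant allele carries substitutions in the iron-binding site of TET3, and the knockout allele lacks exon 4. The day 3 experiment had 3 Tet3+/+, 3 Tet3 m/m and 2 Tet3-/- samples without transfection. In the Dnmt1 experiment, each genotype received either a plasmid for Myc-tagged DNMT1 or the empty vector, with 2 samples per group. In the Tet3-CD experiment, each genotype received either a plasmid for Tet3-CD, which is the catalytic domain with an HA tag, or the empty vector, with 1 sample per group. The study describes the day 3 samples as independent clones. Whether the samples of the transfection experiments came from separate clones, and whether the groups of an experiment shared clones, is not given in the sources used here. There, p-values measure the spread between these samples, which may be technical. Between 2 replicates of a group, the mean chi-square per gene of their reads was 13.8 to 87.2 on day 3 and 3.96 to 11.1 in the Dnmt1 experiment. Replicates thus differed more on day 3, and counts of called genes are not comparable between these experiments.

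TET3 is a dioxygenase that oxidizes 5-methylcytosine in DNA and also acts without this activity. DNMT1 copies methylation onto the new DNA strand after replication, and germ-cell genes such as Dazl are textbook cases of promoters that are methylated and silent in most somatic cells. Retinoic acid without LIF drives ESCs away from pluripotency toward neural progenitors.

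The 115 genes fell into groups by what they are known to do, which were assigned after their values had been seen. There were 14 genes of germ cells and meiosis, 6 of Nodal signalling and early patterning, 6 of pluripotent cells and oocytes, 8 zinc-finger genes and predicted genes placed with them, and 4 of oxidation and detoxification. The others were 16 genes for peptide hormones, receptors, channels and synapse proteins, 12 immune and blood cell genes, 8 metabolic enzymes and transporters, 7 matrix, secreted and junction proteins, and 34 other genes. RefSeq classes 107 of them as protein coding, 4 as pseudogenes (1 of them transcribed) and 2 as long noncoding RNAs, and gave no match for Gm11290 and Gm13245. They lay on 20 chromosomes, and few were next to each other. The longest run was Dppa5a, Ooep and Ddx43, which are 3 consecutive measured genes on chromosome 9. Lefty1 and Lefty2 lay on chromosome 1 with 1 measured gene between them.

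Promoter windows from 250 bases before to 50 bases after a RefSeq start (GRCm38.p6) were read for 81 of the 115 genes. They are shown 5′ to 3′ on the strand of the gene, with each CpG in capitals, because CpG is the site that DNMT1 methylates and TET3 oxidizes. Promoter windows of the germ-cell genes Dazl (chr17:50293571-50293870, minus strand) and Ddx43 (chr9:78395527-78395826, plus strand) held 28 and 30 CpGs.
Dazl: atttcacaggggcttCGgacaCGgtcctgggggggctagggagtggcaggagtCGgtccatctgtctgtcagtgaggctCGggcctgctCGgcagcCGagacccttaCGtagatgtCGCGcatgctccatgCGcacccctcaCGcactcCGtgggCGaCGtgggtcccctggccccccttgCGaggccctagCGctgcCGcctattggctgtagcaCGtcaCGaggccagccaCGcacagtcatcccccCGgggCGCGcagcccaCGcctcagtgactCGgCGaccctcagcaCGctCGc
Ddx43: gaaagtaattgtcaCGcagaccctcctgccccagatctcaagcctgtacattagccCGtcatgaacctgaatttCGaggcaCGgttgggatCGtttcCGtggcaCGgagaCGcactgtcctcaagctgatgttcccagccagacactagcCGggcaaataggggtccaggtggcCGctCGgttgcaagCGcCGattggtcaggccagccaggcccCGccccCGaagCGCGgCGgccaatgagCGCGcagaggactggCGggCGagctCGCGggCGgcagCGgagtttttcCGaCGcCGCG

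The windows of Nodal (chr10:61417722-61418021, plus strand), a ligand of early patterning, and Cyp2b23 (chr7:26686381-26686680, minus strand), a cytochrome P450, held 5 and 2 CpGs.
Nodal: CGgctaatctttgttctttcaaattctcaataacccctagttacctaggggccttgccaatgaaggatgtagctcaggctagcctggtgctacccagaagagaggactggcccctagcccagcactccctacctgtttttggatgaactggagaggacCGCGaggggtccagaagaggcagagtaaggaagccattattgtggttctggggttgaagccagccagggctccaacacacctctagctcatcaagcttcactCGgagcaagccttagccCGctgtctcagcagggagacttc
Cyp2b23: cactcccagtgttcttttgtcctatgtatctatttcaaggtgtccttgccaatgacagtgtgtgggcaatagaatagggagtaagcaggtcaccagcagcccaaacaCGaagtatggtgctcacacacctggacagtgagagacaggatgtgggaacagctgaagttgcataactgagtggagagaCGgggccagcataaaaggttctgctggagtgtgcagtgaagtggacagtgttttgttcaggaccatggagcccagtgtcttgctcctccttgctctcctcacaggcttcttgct

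The zinc-finger genes Rex2 (chr4:147021600-147021899, plus strand), Zfp600 (chr4:146156577-146156876, plus strand, the first of its listed starts) and Zfp534 (chr4:147702582-147702881, minus strand) are shown because they are close relatives in one region of chromosome 4. Their windows held 5, 5 and 3 CpGs, and another listed start of Zfp600 had 1.
Rex2: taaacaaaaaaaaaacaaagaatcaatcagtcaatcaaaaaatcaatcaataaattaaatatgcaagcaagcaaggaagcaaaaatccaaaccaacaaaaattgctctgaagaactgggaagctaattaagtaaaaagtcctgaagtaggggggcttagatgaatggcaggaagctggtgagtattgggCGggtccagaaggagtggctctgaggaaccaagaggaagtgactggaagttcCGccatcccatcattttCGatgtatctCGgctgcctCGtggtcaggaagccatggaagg
Zfp600: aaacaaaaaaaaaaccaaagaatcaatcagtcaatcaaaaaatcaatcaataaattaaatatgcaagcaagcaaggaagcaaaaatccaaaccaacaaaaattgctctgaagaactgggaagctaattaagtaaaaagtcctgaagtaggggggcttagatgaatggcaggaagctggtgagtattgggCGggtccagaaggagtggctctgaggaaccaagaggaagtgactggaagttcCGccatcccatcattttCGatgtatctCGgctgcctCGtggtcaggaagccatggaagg
Zfp534: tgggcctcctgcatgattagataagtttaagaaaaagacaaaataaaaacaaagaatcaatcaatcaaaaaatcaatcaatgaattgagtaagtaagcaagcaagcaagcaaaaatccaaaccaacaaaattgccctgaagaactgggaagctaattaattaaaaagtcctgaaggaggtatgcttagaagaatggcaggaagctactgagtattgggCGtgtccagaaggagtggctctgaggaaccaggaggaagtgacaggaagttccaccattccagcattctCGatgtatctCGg

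The windows of Rex2 and Zfp600 had 299 identical bases in an alignment of 301 (99.3%), whereas Zfp534 matched them at 73.9% and 73.6%. Only these windows were compared and not the transcripts, so whether reads were shared between Rex2 and Zfp600 was not tested, and their separate levels are given as uncertain. Where a gene had several listed starts, the window with the most CpGs was counted. Over the 81 genes the median was 13 CpGs (range 1 to 40), against 21 (0 to 67) over the 12053 genes with a window. The 4 zinc-finger genes with a window had 3 to 6 CpGs. Known motifs were searched on both strands. CACGTG, an E-box, occurred in 9 of the 81 windows (11.1%, against 11.4% of all), TGACNNNGC, the antioxidant response element, in 11 (13.6%, against 16.7%) and the octamer ATTTGCAT in 1 (1.23%, against 1.69%), so none of these motifs was more frequent than in all windows.

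Reads assigned to genes numbered 36594650 to 47710548 in each day 3 library, 31155842 to 50845950 in those of the Dnmt1 experiment, and 33475041 to 37707719 in those with Tet3-CD or its empty vector. The 3 experiments were normalized separately, so levels are compared only within an experiment. The markers of NE cells Sox1, Sox2, Pax6 and Nes were detected in every group, but at unlike levels. With the empty vector of the Dnmt1 experiment, Pax6 was 231 to 309 in the mutant and 995 to 1041 in the wild type. Nes was 897 to 986 in that mutant and 4370 to 4531 in that wild type. With the empty vector of the Tet3-CD experiment, Nes was instead 15200 in the mutant and 5410 in the wild type. In the Dnmt1 experiment, Sox2 was instead higher in the empty-vector mutant. It measured 14051 to 14731 there, against 5990 to 6301 in the wild type. Of 16 neuroectoderm markers, 4 were called higher and 8 lower in that mutant, and up to 2 were at 0 in one of its samples. Detection alone does not show that the groups held the same cells. In bulk RNA, fewer cells of a type and less RNA per cell cannot be told apart.

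In the mutant samples that chose the genes, the smallest of the 3 log2 differences ranged from 1.00 to 2.96. The 25 genes with the largest smallest difference were Vstm2l, Hal, Myo1f, Laptm5, Lefty1, Gm8935, Rex2, Msc, Eomes, H2-M6-ps, Cyp2b23, Ddx43, H2-M5, 2210409E12Rik, Glp1r, Nlrp4f, Accsl, Chga, Gja3, Fbp2, Gm10323, Pla2g1b, Lama3, Trank1 and Trpa1, with values down to 1.55. The genes just inside the limit included Ccnb1ip1 and Syn1 at 1.01 and Shisa8 and Mmrn2 at 1.00. The genes just outside were Jam2 and Kcng2 at 0.999, Prdm1 at 0.994, Arl14epl at 0.979 and Ppp2r2c at 0.977. Called genes are those with a limma adjusted p under 0.05 over all genes tested and a fold change above 1.5. On day 3, 91 of the 115 genes were called higher in the mutant, where 5.06% of all genes tested were (5.19% were called lower, but 0 of the 115), and with the empty vector 114 were, where 10.3% of all genes were. Because these samples chose the genes, the counts carry no independent weight. On day 3 the mutant samples themselves differed, with medians over the 115 genes of 1.23, 1.37 and 1.86 above the wild-type mean in replicates 1, 2 and 3. Markers moved in these samples too, as 11 of 16 neuroectoderm markers were called lower in the day 3 mutant (median -1.20) and 0 higher, and 17 of 21 genes of the 2-cell stage were called higher (median 1.97). Of the pluripotency markers 1 of 14 and of the endoderm markers 4 of 16 were called higher, and none was called lower. The part of these markers in the choice was not tested.

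**Figure D1:**
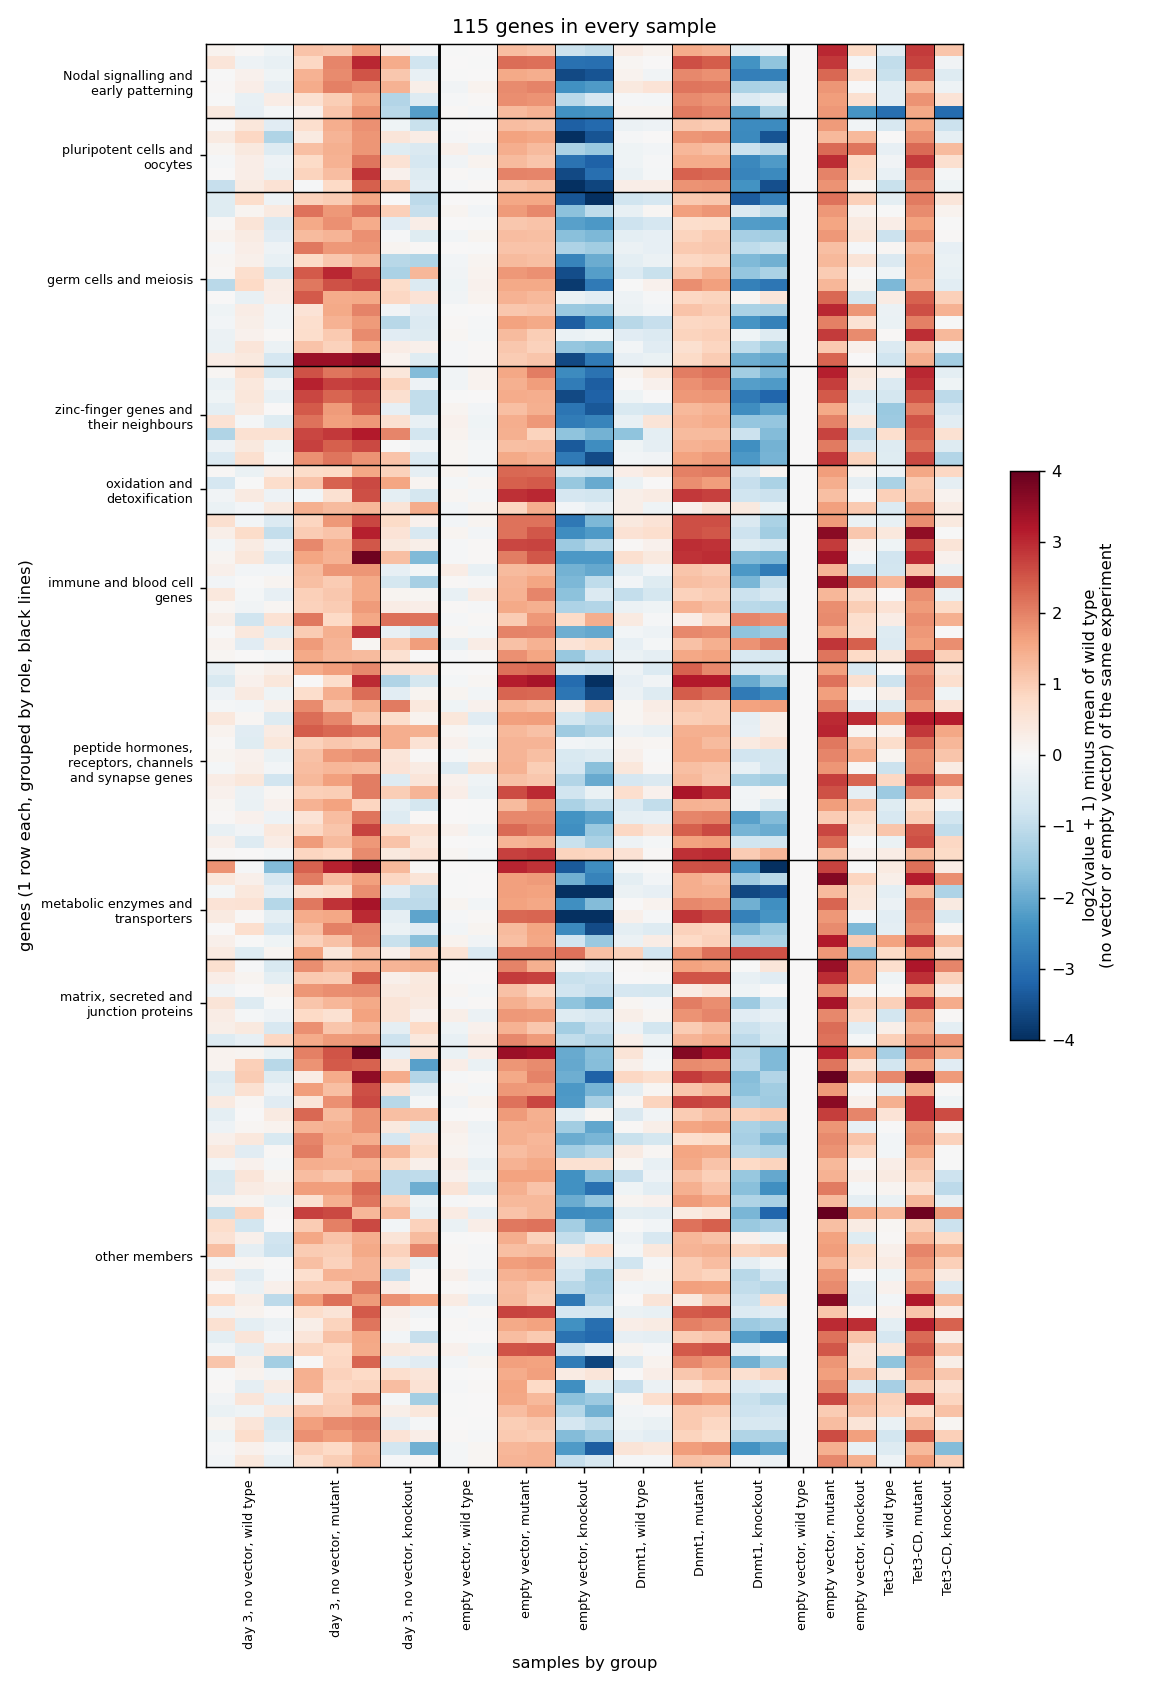
Log2 difference of each of the 115 genes from the mean of the wild-type samples of the same experiment (color scale), with 1 row per gene, grouped by known role, and 1 column per sample. Mutant columns are mostly red in all 3 experiments, which the choice of the genes fixed for the day 3 and empty-vector samples, and knockout columns are mostly blue in the Dnmt1 experiment, where 96 genes were called lower with the empty vector.

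To see whether genes chosen on some experiments behave alike in another, the same limits were applied to pairs of experiments and the remaining one was examined, although the experiments may share clones. Of 245 genes chosen on the Dnmt1 and Tet3-CD experiments, 111 (45.3%) were called higher in the mutant on day 3, where 5.06% of all genes were, 0 were called lower, and 229 had a positive difference (median 1.00). Of 419 genes chosen on day 3 and the Tet3-CD experiment, 173 (41.3%) were called higher and 11 lower with the empty vector of the Dnmt1 experiment, where 10.3% and 10.9% of all genes were, with a median of 0.50. Of 211 genes chosen on day 3 and the Dnmt1 experiment, 138 (65.4%) were at least 1 higher in the mutant of the Tet3-CD experiment, where 12.6% of all genes were.

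The Dnmt1-transfected mutant and wild-type samples were not used in the choice of the genes, although they may come from the same clones. There, 111 of the 115 genes were called higher in the mutant and 0 lower, whereas 10% of all genes tested were called higher and 10.1% lower. An unadjusted p under 0.05 in the lower direction was also found for 0, and edgeR and DESeq2 called 0 lower. The median log2 difference was 1.65 (quartiles 1.34 and 1.91) against 0.01 over all genes. Both mutant samples were above both wild-type samples for 112 genes and below them for 0, as they were for 37.1% and 35.2% of all genes. The 4 genes that were not called were Aox1, Tnfrsf23, Trp73 and Gm11290, with differences of 0.34, 0.39, 0.49 and 0.85. Among the largest differences were those of Penk at 3.40 ± 0.33 (SE, limma adjusted p = 2.67e-08), Vstm2l at 3.27 ± 0.31 (SE, limma adjusted p = 1.68e-08), Laptm5 at 2.81 ± 0.14 (SE, limma adjusted p = 3.99e-13) and Map3k15 at 2.77 ± 0.08 (SE, limma adjusted p = 8.73e-17). Markers of other cell states moved with these genes. Of 14 pluripotency markers, of which Dppa5a is one of the 115, 13 were called higher and 1 lower (median 1.42), and 16 of 17 markers of primitive and visceral endoderm were called higher. The summed level of the pluripotency markers other than Dppa5a was 89513 to 90424 in the Dnmt1-transfected mutant and 32886 to 32953 in the wild type, and no defining marker was at 0. Of 16 neuroectoderm markers, 3 were called higher and 9 lower. Their part in the result was not tested.

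**Figure D2:**
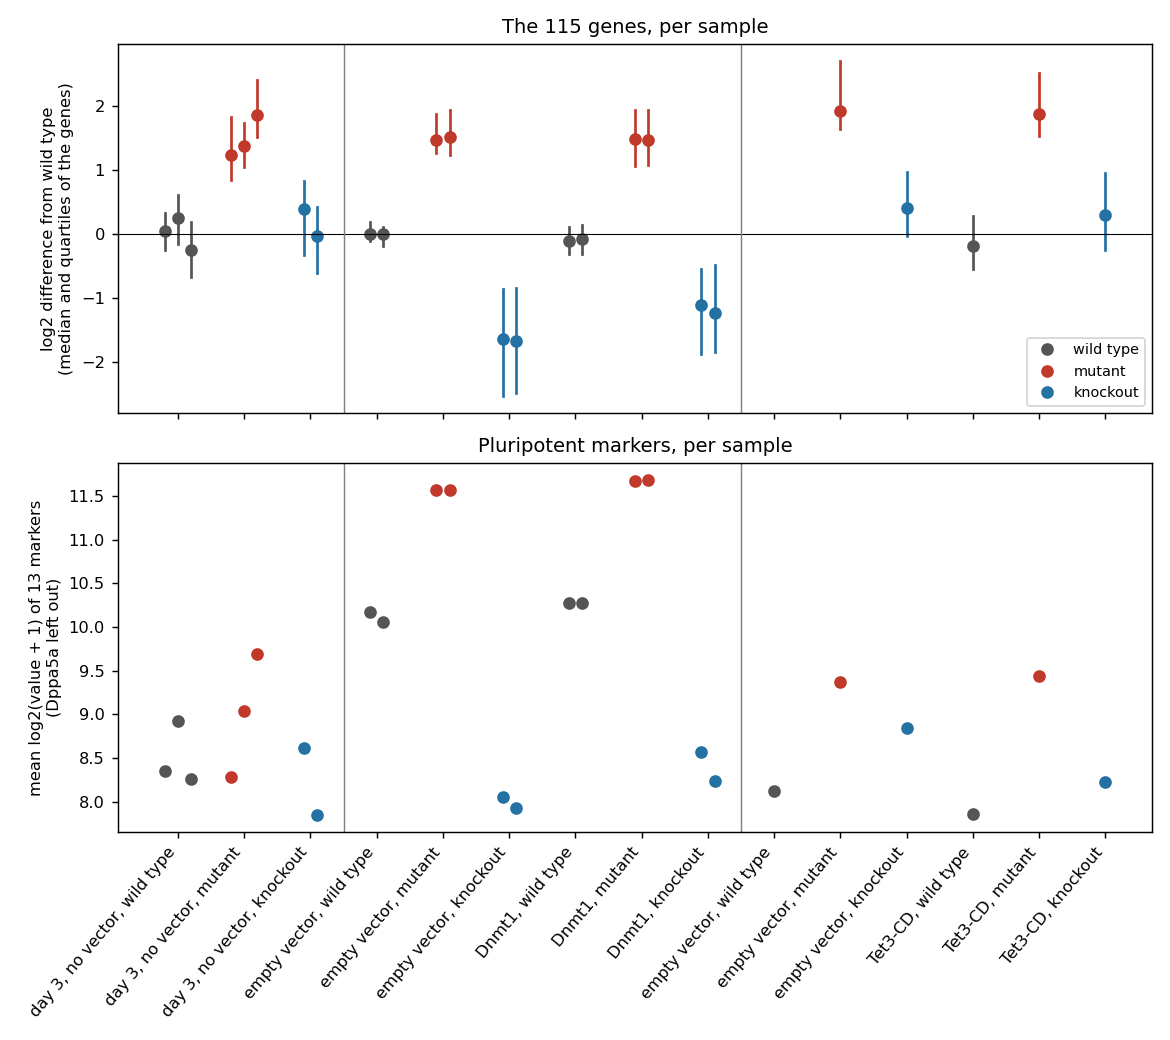
Top, log2 difference from the mean of the untransfected or empty-vector wild-type samples of the experiment, as the median (points) and quartiles (bars) over the 115 genes in each sample; each wild-type sample in that mean is compared with the other samples of the mean. Bottom, mean log2(value + 1) of 13 pluripotency markers in the same samples. Mutant medians lie between 1.23 and 1.93, and knockout medians between -0.03 and 0.41 on day 3 and in the Tet3-CD experiment but between -1.67 and -1.10 in the Dnmt1 experiment.

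The knockout differed from the wild type to another extent in each experiment. Whole-gene Tet3 counts, which include the exons that the allele keeps and so do not check the deletion, were 1796 to 2329 in day 3 knockout libraries against 4577 to 5020 in the wild type, but 2520 to 2571 against 2957 to 3075 with the empty vector of the Dnmt1 experiment. In the mutant, Tet3 counts were also below the wild type, at 1945 to 2666 on day 3 and 964 to 1125 with that empty vector. The study asks that this reduced mutant transcript be kept in mind when its data are read. Its part in the choice of the genes was not tested. On day 3, the 115 genes were as a group near the wild-type level in the knockout. The median log2 difference was 0.14 (quartiles -0.32 and 0.46, range -1.64 to 2.19), with 67 genes above 0 and 48 below. Only Nptx2 was called higher and no gene was called lower, where 0.458% and 0.184% of all genes were. In the lower direction, 8 genes had an unadjusted p under 0.05. DESeq2 on the recovered reads called 7 higher and 4 lower (3.42% and 1.69% of all genes), and edgeR 1 higher and 0 lower (0.363% and 0.117%). Both knockout samples were above every wild-type sample for 23 genes and below for 14, as they were for 20.8% and 20.4% of all genes. The wild-type samples of this comparison also chose the genes, so the counts are a description. Nptx2, a secreted protein of excitatory synapses, measured 226, 148 and 256 in the wild type, 1104, 1007 and 915 in the mutant and 565 and 546 in the knockout. Its knockout samples lay between the other groups without overlap, and the call was lost when any 1 sample was left out. The knockout samples themselves differed, with medians over the 115 genes of 0.39 and -0.03. Of 14 pluripotency and 16 endoderm markers, 0 were called in this comparison (medians -0.25 and -0.59). Of 16 neuroectoderm markers, 1 was called higher and 2 lower (median -1.17). The part of these markers in the result was not tested.

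With the empty vector of the Dnmt1 experiment, most of these genes were lower in the knockout than in the wild type. Of the 115 genes, 96 were called lower and 5 higher, where 13.9% and 11% of all genes tested were. The median log2 difference was -1.74 (quartiles -2.70 and -0.86), and 84 genes were at least 1 lower. Both knockout samples were below both wild-type samples for 104 genes and above for 8, against 38.3% and 38.8% of all genes. These wild-type samples also chose the genes, so the counts are a description. For most of these genes, the mutant was thus above and the knockout below the wild type of the same experiment. The 5 genes called higher were Slc4a9, Tnfrsf23, Mdga1, Gbp3 and C130074G19Rik. The call of Slc4a9 was lost without replicate 1 of the knockout (log2 difference 1.19) or without 1 wild-type sample (1.10), that of Tnfrsf23 without knockout replicate 2 (0.76), and those of Gbp3 and C130074G19Rik without 1 of several samples (down to 0.35 and 0.29). The 5 with the largest fall were Cyp2b23, Upp1, Platr10, Dazl and Tcl1. The pluripotency markers moved along with them, as 12 of 14 were called lower in the knockout (median -2.53) and their summed level without Dppa5a was 8222 to 8659, against 30144 to 30829 in the wild type and 84153 to 86327 in the mutant. Of the endoderm markers, 14 of 17 were called lower. Neuroectoderm markers went both ways, with 6 called higher and 4 lower. The part of these markers in the result was not tested.

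The Dnmt1-transfected samples allowed the same comparison with samples that did not choose the genes. In them, 77 of the 115 genes were called lower in the knockout than in the wild type and 10 higher, where 13% and 11.9% of all genes were, with a median log2 difference of -1.12 (quartiles -1.75 and -0.33). The largest falls were those of Hal, an enzyme of histidine breakdown, at -3.43 ± 0.43, Upp1, an enzyme of uridine breakdown, at -3.27 ± 0.06, Platr10, a noncoding RNA of pluripotent cells, at -3.22 ± 0.27, Tcl1 at -2.98 ± 0.24 and Zfp534 at -2.93 ± 0.14 (SE). The genes called higher were Slc4a9, Gbp3, Tnfrsf23, Galr2, Trank1, C130074G19Rik, Mdga1, Tesc, Fam161a and Fndc1. Against the Dnmt1-transfected mutant, 103 genes were called lower in the knockout and 2 higher, Tnfrsf23 and Gbp3, where 19.8% and 19.1% of all genes were (median -2.73). Because the genes were chosen as high in the mutant, a knockout at the wild-type level would also lie below it. These counts against the mutant are therefore a description. Gbp3 was no longer called without replicate 1 of the mutant (0.48) or replicate 2 of the knockout (0.49). The largest of those falls were -6.06 for Hal, -5.30 for Cyp2b23, -5.01 for Trh, -4.99 for Upp1 and -4.93 for Penk. Of the 14 pluripotency markers, 12 were called lower than in the wild type and 14 lower than in the mutant, with a summed level in the knockout of 11204 to 11334 without Dppa5a. Against the wild type, 14 of 17 endoderm markers were called lower and 1 higher, and 8 of 16 neuroectoderm markers were called lower and 1 higher. The part of these markers in the result was not tested.

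**Figure D3:**
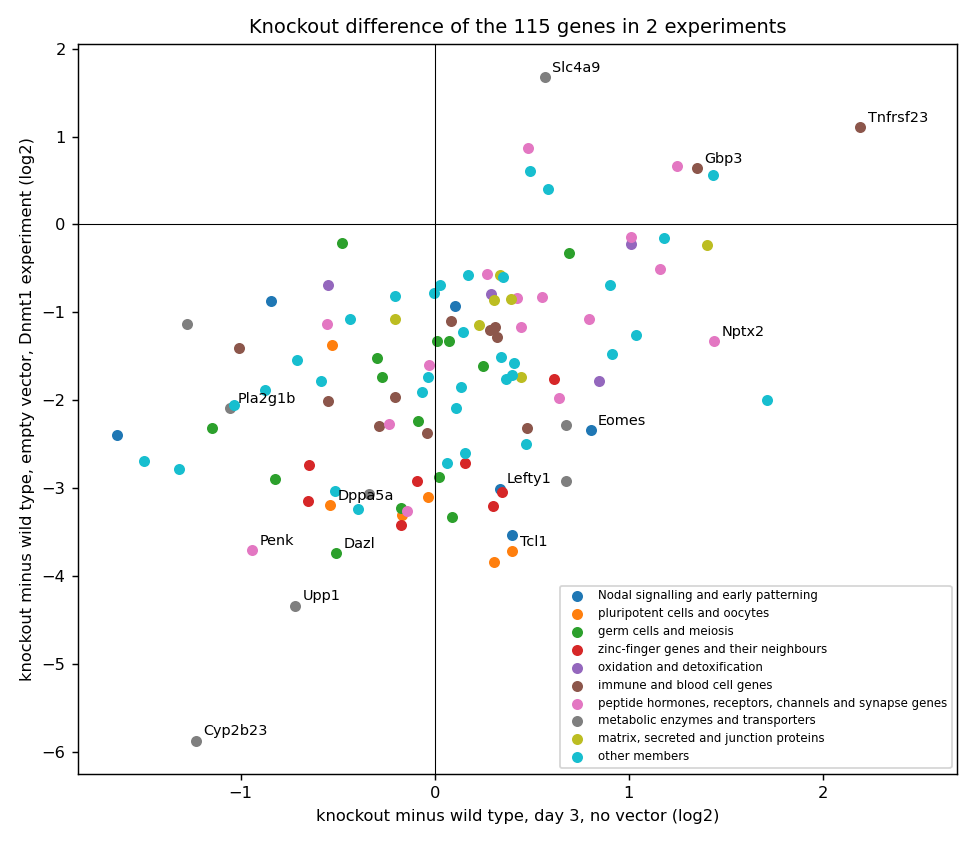
Log2 difference of knockout minus wild type for each of the 115 genes (1 point per gene), on day 3 (x axis) and with the empty vector of the Dnmt1 experiment (y axis). The day 3 values spread around 0 with a median of 0.14, and the values with the empty vector lie mostly below 0 with a median of -1.74.

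Set side by side, the knockout differences on day 3 and with the empty vector of the Dnmt1 experiment came from separate samples, and the difference between experiments was not tested. For 14 genes, the knockout samples were above every wild-type sample on day 3 and below every one with the empty vector, among them Aox1, Ccdc3, Chga, Eef1a2, Fbp2, Fndc1, Lama3, Meioc, Nmnat2, Nptx2, Tnfrsf1b, Trp73 and Trpa1. Of the 17244 genes tested in both experiments, 3.08% did so. For 14 others they were below in both, among them Upp1, Dmc1, Fgf17, Gbx2, Penk and Pir, as were 11.6% of those genes. For 6 genes they were above in both, which were C130074G19Rik, Fam161a, Galr2, Gbp3, Mdga1 and Tnfrsf23, as were 14.4% of those genes. None of the 115 was below on day 3 and above with the empty vector, as 4.8% of those genes were. The wild-type samples of both comparisons chose the genes. Taken singly, 23 of the 115 genes were above on day 3 and 104 were below with the empty vector. The 14 genes that did both are a smaller part of those 23 than 104 is of 115. Beside the general fall of the 115 genes with the empty vector, their count is thus no excess, though it is a larger share than among all genes. Whether it follows from that fall was not tested.

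Transfection of Dnmt1 raised many of these genes in the knockout. Of the 115 genes, 38 were called higher with Dnmt1 than with the empty vector in Tet3-/- cells and 0 lower, where 2.51% and 1.02% of all genes tested were. The median log2 difference was 0.54 (quartiles 0.33 and 0.78), and 106 genes were above 0. Both Dnmt1-transfected samples were above both empty-vector samples for 82 genes, as they were for 27.3% of all genes. The rises left most genes below the wild type, as the counts above show. The largest were those of Cyp2b23 at 3.33 ± 0.50 (SE, limma adjusted p = 0.00011), Trp73, a relative of p53, at 1.95 ± 0.54 (SE, limma adjusted p = 0.019), Penk, the precursor of enkephalins, at 1.95 ± 0.33 (SE, limma adjusted p = 0.00045), Fam25c at 1.58 ± 0.26 (SE, limma adjusted p = 0.00026) and Sycp2, a protein of the synaptonemal complex, at 1.47 ± 0.36 (SE, limma adjusted p = 0.0083). The count depended on 1 library, since it was 24 without replicate 2 of the Dnmt1-transfected knockout, and it was 17 when only the 2 compared groups were fitted. The calls of Trp73 and Sycp2 were lost without replicate 1 of the empty-vector knockout (1.11 and 0.81) or replicate 2 of the Dnmt1-transfected knockout (1.16 and 1.34). In the lower direction, 1 gene had an unadjusted p under 0.05, and edgeR and DESeq2 called 0. Pluripotency markers rose alongside, with 8 of 14 called higher (median 0.60) and none lower. The level of Dnmt1 itself was 17356 to 17554 with the empty vector and 33381 to 39854 after transfection in the knockout. It went from 14678.5 to 15225 with the empty vector to 22799 to 23768 after transfection in the wild type. In the mutant, these levels were 11285 to 11934 and 20245 to 23211. The knockout samples thus had the highest Dnmt1 level with either vector. The part of these levels in the result was not tested.

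In the other genotypes, few of the genes were called after the same transfection. In the mutant, 0 genes were called higher and 1 lower (Dnah10), with a median of -0.05, where 1.78% and 0.681% of all genes were. In the wild type, 0 were called higher and 5 lower (Prss50, Dnah10, Sohlh2, Dazl and Fndc1), with a median of -0.10, where 0.421% and 0.753% of all genes were. By unadjusted p under 0.05, 10 genes were higher in the mutant and 5 in the wild type, and no other tool was run there. The empty-vector samples of both comparisons chose the genes. The Dnmt1 response was tested against that of the other genotypes with interaction terms. It was called larger in the knockout than in the mutant for 32 genes (median 0.58, 2.89% of all genes) and larger than in the wild type for 37 (median 0.65, 2.66% of all genes), and called smaller for 0 in both (2.5% and 1.33% of all genes). In that direction, 2 and 1 genes passed an unadjusted p of 0.05. Both tests use the same knockout samples, and empty-vector samples of the mutant or wild type that chose the genes. Choosing genes for high empty-vector mutant values pushes the mutant response down, which favours the count against the mutant. Choosing them for low empty-vector wild-type values pushes the wild-type response up, which works against the other count. Both counts are therefore a description.

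**Figure D4:**
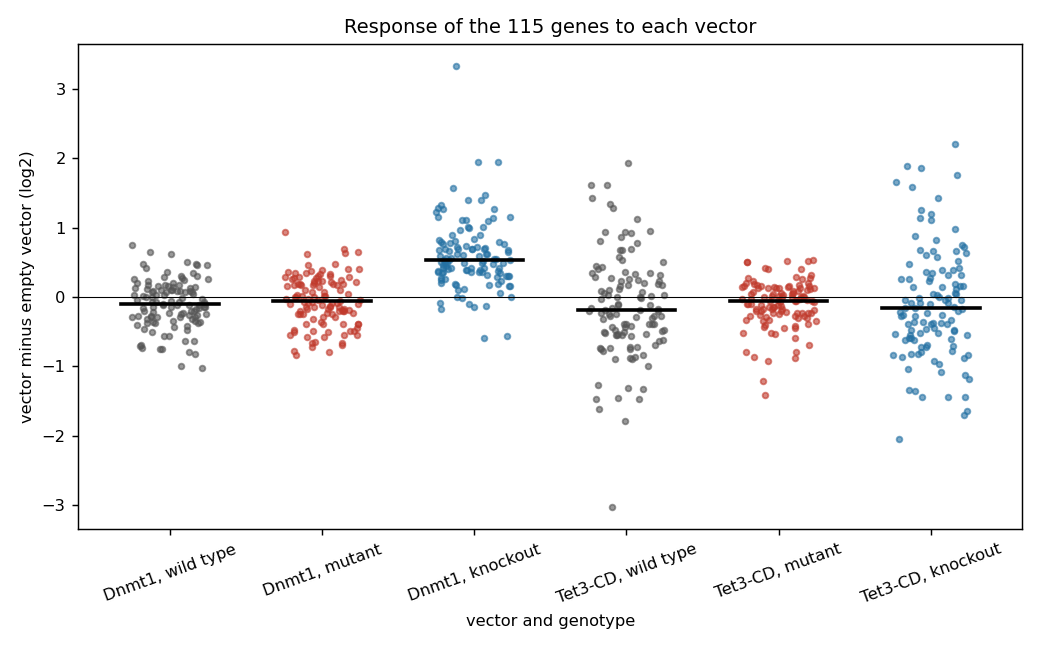
Log2 difference between transfected and empty-vector samples over the 115 genes, by genotype, for Dnmt1 (2 samples per group) and Tet3-CD (1 sample per group). For Dnmt1, the knockout has a median of 0.54, against -0.05 in the mutant and -0.10 in the wild type, and for Tet3-CD the medians lie between -0.18 and -0.06.

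The Tet3-CD experiment had 1 sample per group, so its differences have no replicate check and were not tested. The single empty-vector mutant and wild-type samples also chose the genes, as high and as low, so comparisons with them are a description. Counts of Tet3 itself went from 4755 without to 5441 with Tet3-CD in the wild type, from 1850 to 5232 in the mutant and from 2070 to 2759 in the knockout, with the largest difference in the mutant. The part of these levels in what follows was not tested. With Tet3-CD instead of the empty vector, the median difference in the mutant was -0.06, 0 genes were at least 1 higher, and 2 were at least 1 lower, Shisal2a at -1.42 and Gbp3 at -1.21 (1.82% and 2.09% of all genes). In the wild type the median was -0.18, with 7 genes at least 1 higher and 9 lower (2.66% and 3.2% of all genes). In the knockout it was -0.16, with 11 higher and 12 lower (4.35% and 4.95% of all genes). Between the Tet3-CD-transfected mutant and wild type, samples that did not choose the genes, 105 were at least 1 higher and 0 at least 1 lower (11.9% and 7.41% of all genes), with a median of 2.14. The smallest differences were those of Abhd3 at -0.17 and Pir at 0.17. In the knockout against the wild type with the empty vector, the wild-type sample being one that chose the genes, the median was 0.41, 28 genes were at least 1 higher and 3 at least 1 lower (8.67% and 5.37% of all genes). With Tet3-CD, for samples that did not choose the genes, the median was 0.49, with 31 higher and 5 lower (8.9% and 5.63% of all genes). Against the Tet3-CD-transfected mutant, 0 genes were at least 1 higher in the knockout and 90 at least 1 lower (5.38% and 8.07% of all genes). A knockout at the wild-type level would also lie below a mutant in which the genes were chosen as high, so these counts are a description. The summed pluripotency markers without Dppa5a were 12369 in the wild type, 22200 in the mutant and 14648 in the knockout with the empty vector, and 10835, 21905 and 11171 with Tet3-CD. Both wild-type samples stood apart in the endoderm markers, whose summed level was 1105560 in the wild type, 235656 in the mutant and 311581 in the knockout with the empty vector, and 921472, 213041 and 198391 with Tet3-CD. In the Dnmt1 experiment the order was another one, with 281586 to 292033 in the wild type, 652925 to 729354 in the mutant and 121043 to 124042 in the knockout with the empty vector. The summed interferon and antigen presentation genes were highest in the knockout, at 30525 against 7997 in the wild type and 10605 in the mutant with the empty vector. The part of these markers in the results was not tested.

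The counts by role below are to be read beside those of all 115 genes. Of these, 96.5% were called higher in the Dnmt1-transfected mutant (10% of all genes tested) and 83.5% lower in the empty-vector knockout (13.9%). In the Dnmt1-transfected knockout 67.0% were called lower (13%), and 33.0% were called higher after Dnmt1 in the knockout (2.51%). Differences between role groups were not tested. Among the genes of Nodal signalling and early patterning, the ligand Nodal, its inhibitors Lefty1 and Lefty2, the transcription factors Eomes and Gbx2 and the growth factor Fgf17 were in the group. Normalized counts of Lefty1 were 275, 171 and 161 in wild-type, 350.3, 766 and 1603 in mutant and 549 and 112 in knockout cells on day 3. The mutant samples were all above the wild type, and the 2 knockout samples lay on either side of it. In the Dnmt1 experiment, Lefty1 measured 940.4 and 916 in the wild type, 4354 and 4274 in the mutant and 116 and 113 in the knockout with the empty vector, and 979 and 939 in the wild type, 5511 and 5020.1 in the mutant and 178 and 301 in the knockout with Dnmt1. No groups of different genotype overlapped. With Dnmt1, its mutant difference was 2.45 ± 0.14 (SE, limma adjusted p = 6.96e-12), its knockout difference -2.05 ± 0.14 (SE, limma adjusted p = 1.21e-10) and its Dnmt1 response in the knockout 1.01 ± 0.14 (SE, limma adjusted p = 6.28e-05). Nodal itself fell less in the knockout, from 964 and 996 to 534 and 497 with the empty vector, and Dnmt1 raised it there to 734 and 846 (0.61 ± 0.08 on the log2 scale, SE). Eomes, a marker of primitive streak, measured 259 and 318 in the wild type, 1075 and 1145 in the mutant and 52.8 and 59.2 in the knockout with the empty vector, and 119.8 and 121 in the knockout with Dnmt1. All 6 genes of the group were called higher in the Dnmt1-transfected mutant, all 6 were called lower in the empty-vector knockout, and 5 were called higher after Dnmt1 in the knockout, the exception being Gbx2 at 0.42. Of 13 measured markers of primitive streak and mesoderm, which include Eomes, 5 were called higher and 6 lower in the Dnmt1-transfected mutant.

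The genes of pluripotent cells and oocytes were Dppa5a, Tcl1, Eras, Ooep, Nlrp4f and Platr10. Dppa5a, an RNA-binding protein of pluripotent cells, measured 2786, 3772 and 2011 in wild-type, 4418, 7511 and 9842 in mutant and 2434 and 1487 in knockout cells on day 3. With the empty vector of the Dnmt1 experiment it measured 16324 and 16485 in the wild type, 38228 and 37088 in the mutant and 1693 and 1897 in the knockout, so the knockout samples were far below both other genotypes there, while on day 3 one of them was within the wild-type range. Dnmt1 raised it in the knockout to 2866 and 2889, a difference of 0.68 ± 0.05 (SE, limma adjusted p = 1.75e-08). Tcl1, a cofactor of AKT kinase in ESCs, measured 211 and 227 in the wild type, 667 and 641 in the mutant and 13 and 19 in the knockout with the empty vector. Platr10 measured 169 and 177 in the wild type, 381 and 405 in the mutant and 9.74 and 12.7 in the knockout there. All 6 genes were called lower in the knockout with either vector and 4 were called higher after Dnmt1 in the knockout.

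The group held 14 germ-cell and meiosis genes. All 14 were called higher in the Dnmt1-transfected mutant, 12 were called lower in the empty-vector knockout, 11 in the Dnmt1-transfected knockout, and 4 were called higher after Dnmt1 in the knockout. Of all 115 genes, 96.5%, 83.5%, 67.0% and 33.0% were. Dazl, an RNA-binding protein needed for germ cells, measured 117, 265 and 142 in wild-type, 313, 336 and 484 in mutant and 165 and 79.7 in knockout cells on day 3. With the empty vector of the Dnmt1 experiment it measured 963 and 935 in the wild type, 2795 and 2804 in the mutant and 87.7 and 56.1 in the knockout, and with Dnmt1 546 and 597 in the wild type, 1949.6 and 2005 in the mutant and 94.1 and 138 in the knockout. Dazl was called lower with Dnmt1 in the wild type and higher in the knockout, where the difference was 0.69 ± 0.16 (SE, limma adjusted p = 0.0063), and the order of the genotypes was the same with either vector. Dmc1, a recombinase of meiosis, was 306 and 351 in the wild type, 792 and 764 in the mutant and 52 and 81.5 in the knockout with the empty vector. Meioc, a regulator of meiotic prophase, was not called lower there, at 597 and 535 in the knockout against 638 and 792. Sycp2 was 4.87 and 13.8 in the empty-vector and 22.5 and 27.4 in the Dnmt1-transfected knockout. Among 25 measured germline genes known to be controlled by methylation, which include Dazl, 15 were called higher and 0 lower in the Dnmt1-transfected mutant, 24 were called lower in the empty-vector knockout, and 9 were called higher after Dnmt1 in the knockout.

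The zinc-finger genes and the predicted genes placed with them comprised Rex2, Zfp600, Zfp534, Zfp640, Gm10323, Gm13245, Gm21411 and Gm40977. Any figure label that calls the predicted genes neighbours is borne out only for Gm10323. It lay with Zfp640 in a span of 3 measured genes on chromosome 13. All 8 were called higher in the Dnmt1-transfected mutant, all 8 were called lower in the empty-vector knockout, and 6 were called higher after Dnmt1 in the knockout. Zfp534 measured 116, 179 and 105 in wild-type, 825, 661 and 765 in mutant and 203 and 64.9 in knockout cells on day 3, and 463 and 467 in the wild type, 1304 and 1282 in the mutant and 37.4 and 48.7 in the knockout with the empty vector. The knockout samples lay on either side of the wild type on day 3 and below it with the empty vector. Rex2 measured 169.9 and 209.9 in the wild type, 555 and 776 in the mutant and 32.5 and 23.3 in the knockout with the empty vector, and Zfp600 169 and 203 in the wild type, 503 and 587 in the mutant and 26 and 18 in the knockout. After Dnmt1 in the knockout, Rex2 was 70.8 and 52.4 and Zfp600 39.4 and 38.1, rises of 1.12 ± 0.21 and 0.81 ± 0.20 (SE). Genes of the 2-cell stage embryo, a list that shares none of the 115 genes, were called lower in the empty-vector knockout for 22 of 22 measured genes and higher after Dnmt1 in the knockout for 15, but in the Dnmt1-transfected mutant 0 were called higher and 2 lower. Against the wild type of their experiments, 17 of 21 were called higher in the day 3 mutant, 0 higher and 3 lower in the empty-vector mutant of the Dnmt1 experiment, and their summed level with the empty vector of the Tet3-CD experiment was 28924 in the mutant, 3343 in the wild type and 3598 in the knockout. Their mutant difference thus varied between experiments.

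Of the 4 oxidation and detoxification genes, Pir, an iron-binding nuclear protein, measured 274 and 241 in the wild type, 1954 and 2067 in the mutant and 162 and 154 in the knockout with the empty vector, and 98.3 in the wild type, 225 in the mutant and 96.2 in the knockout in the Tet3-CD experiment, so its mutant difference was far smaller in the latter. Nqo1, a quinone reductase, measured 271 and 235 in the wild type, 1248 and 1223 in the mutant and 153 and 139.7 in the knockout with the empty vector of the Dnmt1 experiment. Cbr3, a carbonyl reductase, was the only one called higher after Dnmt1 in the knockout (33.3 and 23.3 to 51.5 and 40.5). Aox1, an aldehyde oxidase, was not called in the knockout with either vector.

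Among the 12 immune and blood cell genes, 10 were called lower and 2 higher in the empty-vector knockout. Laptm5, a lysosomal protein of blood cells, was 188 and 197 in the wild type, 1240.2 and 1257 in the mutant and 69.8 and 88.9 in the knockout. The exceptions were Gbp3, an interferon-induced GTPase, and Tnfrsf23, a decoy receptor. Tnfrsf23 measured 59.8, 29 and 77.1 in wild-type, 226, 89.4 and 151 in mutant and 239.7 and 236 in knockout cells on day 3, and 55.4 and 41.3 in the wild type, 51.8 and 76.2 in the mutant and 169 and 155 in the knockout with Dnmt1. Its knockout samples were above every mutant sample in both cases, but with the empty vector they measured 73.1 and 118 against 87.7 and 146 in the mutant, which overlap, and with the empty vector of the Tet3-CD experiment 78.2 against 185. Gbp3 measured 40.5 and 48.4 in the wild type, 115 and 139 in the mutant and 178 and 214 in the knockout with Dnmt1, and Dnmt1 raised it in the knockout by 1.28 ± 0.25 (SE, limma adjusted p = 0.0014).

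Of the 16 genes for peptide hormones, receptors, channels and synapse proteins, 11 were called lower and 1 higher in the empty-vector knockout. Penk was 59.3 and 64.9 in the wild type, 550.2 and 619 in the mutant and 6.5 and 2.12 in the knockout with the empty vector, and 14.5 and 21.4 in the knockout with Dnmt1. On day 3 its mutant samples were 45.1, 74.2 and 358, of which replicate 3 stood apart. Trh, the precursor of thyrotropin-releasing hormone, was 560.1 and 492 in the wild type, 2645 and 2592 in the mutant and 69.8 and 41.3 in the knockout with the empty vector. Mdga1, an adhesion protein of the cell surface, was the one called higher in the knockout, at 415 and 407 against 237 and 211, with 1487 and 1578 in the mutant. Galr2, a galanin receptor, was called higher in the Dnmt1-transfected knockout, at 63.5 and 66.6 against 21.3 and 25.2 in the wild type.

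**Figure D5:**
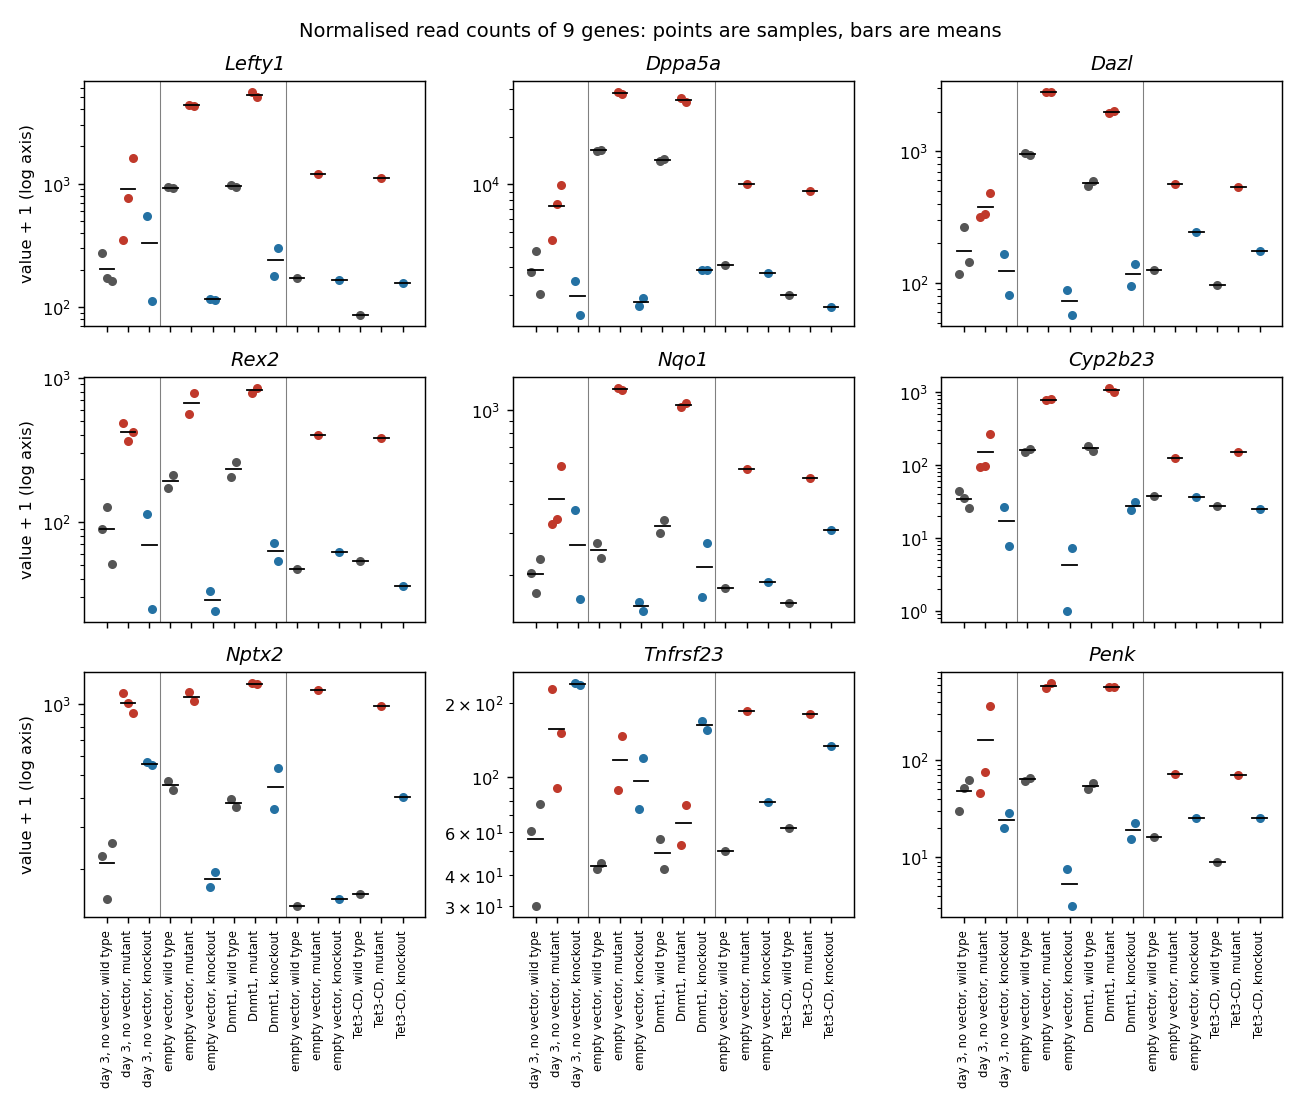
Normalized counts plus 1 (log axis) of 9 of the genes in every sample, by experiment (grey lines), genotype (color) and vector, with points for samples and bars for group means. Dppa5a and Dazl are highest in the mutant of each experiment and, within the Dnmt1 experiment, lowest in the knockout, whereas Tnfrsf23 in the knockout lies above the wild type with the same treatment.

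Of the 8 metabolic enzymes and transporters, 7 were called lower in the empty-vector knockout. Upp1 was 4524 and 4565 in the wild type, 14323 and 13905 in the mutant and 231 and 217 in the knockout with the empty vector, and 363 and 408 in the knockout with Dnmt1. Cyp2b23 was 151 and 165 in the wild type, 776 and 796 in the mutant and 0 and 6.35 in the knockout with the empty vector and 23.3 and 29.8 in the knockout with Dnmt1. Its empty-vector knockout values are so low that its log2 differences depend on the pseudocount, and the Dnmt1 response was 2.06 with a pseudocount of 5. Slc4a9, a bicarbonate transporter, was the exception, with 67.4 and 33.9 in the knockout against 21.7 and 9.28 in the wild type with the empty vector, and 91.7 and 88.1 against 27.7 and 8.06 with Dnmt1. Among the 7 matrix, secreted and junction proteins, 5 were called lower in the empty-vector knockout and 2 in the Dnmt1-transfected knockout. Lama3, a laminin chain, was not called in either, at 72.3 and 62.4 against 79 and 78.9 with the empty vector. Of the 34 other genes, 28 were called lower and 1 higher in the empty-vector knockout, and 6 were called higher after Dnmt1 in the knockout. Vstm2l measured 35.6 and 51 in the wild type, 466 and 438 in the mutant and 9.74 and 12.7 in the knockout with the empty vector.

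The responses were also described by the CpG number of the promoter window, at the median of 13. Of 43 genes at or under it, 17 were called higher after Dnmt1 in the knockout (median 0.61), and of 38 genes over it, 10 were (median 0.39). Called lower in the empty-vector knockout were 38 of 43 and 30 of 38. Of all 115 genes, 33.0% were called higher after Dnmt1 and 83.5% lower in the empty-vector knockout (2.51% and 13.9% of all genes). The genes with more CpGs included Dazl and Ddx43, and those with fewer included Nodal, Cyp2b23 and the zinc-finger genes, as the sequences above show. The difference between these classes was not tested.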

How the data were processed

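RNA-seq values of 26 samples were used. Per the study's methods, reads were trimmed (Trim Galore 0.6.7), aligned (STAR 2.7.9a) and counted per gene (featureCounts). The authors then scaled the counts by DESeq2 size factors, so the deposited values are signal on a linear scale, with reads as their base. In all samples, values were whole multiples of what 1 read is worth (within 0.01), which gave the recovered reads and depths. For a Dnmt1-transfected wild-type sample and an empty-vector knockout sample of the Tet3-CD experiment that multiple was about 1, so values and reads nearly coincide.

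Genes were chosen on log2(value + 1). The genes, the lists and the role groups were chosen with earlier results of these data known. Genes with a mean value of at least 10 (17915 on day 3, 18055 in the Dnmt1 experiment) entered limma 3.58.1 (R 4.3.3) on log2(value + 1), in 1 model per experiment with trended empirical Bayes variances. Benjamini-Hochberg adjustment ran over all genes tested. A called gene has an adjusted p below 0.05 together with a change of more than 1.5-fold. The tests were tested on simulated data. As alternatives, pseudocounts of 0.1 and 5 were used, the filter was dropped or set to a mean of 50, and fits were repeated with TMM rescaling, edgeR 4.0.16 and DESeq2 1.42.0 on the recovered reads, only the compared groups, no fold change threshold, a replicate block and each replicate left out. Replicate numbers did not pair the samples. Named are the 25 genes with the largest smallest difference, those next to the limit, genes on 13 lists, and the 5 largest called changes per tested comparison in each direction, of which some genes are not reported here. Other genes in the text were chosen as examples after their values were seen. Figures and tables were made with Python 3.11.15, pandas 2.3.3, numpy 2.4.6 and matplotlib 3.10.9.

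The study names mm39 and the processing notes in GEO mm10 as the genome. Only promoter windows carry coordinates here, which are those of RefSeq on GRCm38.p6, matched by symbol. Methylation files were not used here.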

Additional observations from a re-analysis of the deposited data

Results flagged for a closer look

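The response of the 115 genes to Dnmt1 differed between genotypes in the Dnmt1 experiment (2 samples per group). The log2 difference of Dnmt1 minus empty vector was called larger in the knockout than in the mutant for 32 genes and larger than in the wild type for 37, in limma's test of the interaction, where 2.89% and 2.66% of all genes were. Both use empty-vector samples that chose the genes, which favours the count against the mutant, so the counts are a description. In this experiment the level of Dnmt1 was highest in the knockout with either vector, which was not so on day 3.

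For 14 genes, the knockout samples were above every wild-type sample on day 3 (2 against 3 samples) and below every one with the empty vector (2 against 2). The difference between the experiments was not tested. Of the 17244 genes tested in both experiments, 3.08% did so, and the wild-type samples of both comparisons chose the 115 genes. Taken singly, 23 of the 115 genes were above on day 3 and 104 were below with the empty vector (20.8% and 38.3% of all genes). The 14 are a smaller part of those 23 than 104 is of 115. Beside that general fall their count is no excess, though it is a larger share than among all genes. Whether it follows from the fall was not tested.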

How the results depend on the processing

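The number of genes chosen was 198 without a minimum mutant value and 197 with a minimum of 10, 117 and 102 with pseudocounts of 0.1 and 5, and 87 (without day 3 mutant replicate 3) to 131 (without day 3 mutant replicate 1) with 1 sample left out. The 111 genes called higher in the Dnmt1-transfected mutant ranged over 104 to 112, the 96 called lower in the empty-vector knockout over 93 to 100, the 77 called lower in the Dnmt1-transfected knockout than in the wild type over 72 to 83, and the 103 called lower than in the mutant over 101 to 106. The single gene called higher in the day 3 knockout became 2 with a pseudocount of 5, with only the 2 compared groups and with the replicate block, 7 with DESeq2 and 0 with any sample left out (0 to 0). The 38 genes called higher after Dnmt1 in the knockout became 17 with only the 2 compared groups in the fit, which leaves fewer samples to estimate the spread, 49 without a fold change threshold, and 24 to 40 with 1 sample left out. edgeR called 32 and DESeq2 34. With 1 sample left in a group, that sample is assumed to vary like the other groups.

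None of the results recomputed changed sign, and of 38 results for single genes, 29 kept their call under every alternative. Same-numbered samples did not deviate together, with correlations of -0.098 to 0.082 over 7 pairs on day 3 and -0.053 to 0.029 over 20 pairs in the Dnmt1 experiment. With 2 samples per group, the replicate 1 and replicate 2 pairs of the same groups give an identical correlation. The 20 pairs are therefore not independent. With the replicate number as a block, the counts in the Dnmt1 experiment were 111, 78, 103 and 34. No paired analysis was possible for the empty-vector knockout against the wild type because the wild-type columns carry no distinct numbers. Depth limits genes near 0, such as Cyp2b23 in the empty-vector knockout, whose log2 differences depend on the pseudocount.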

Other observations

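Of the 13 lists of marker genes examined alongside, 10 held none of the 115 genes. Hox genes went the other way in part of the comparisons, as 15 of 37 measured genes were called lower and 1 higher in the Dnmt1-transfected mutant, and 16 were called higher and 5 lower in the empty-vector knockout. Of 37 imprinted genes, 17 were called lower and 1 higher in the Dnmt1-transfected mutant, and 9 higher and 1 lower in the empty-vector knockout. Of 16 interferon and antigen presentation genes, 9 were called higher and 1 lower in the empty-vector knockout. Of 9 trophoblast markers, 7 were called lower in the Dnmt1-transfected mutant. In the empty-vector knockout, 4 of 9 trophoblast and 4 of 9 feeder fibroblast markers were called higher, with 2 and 1 lower, 1 of 6 neural crest markers was called higher and 2 lower, and 3 of 9 Tet and Dnmt genes were called lower and 0 higher.

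The chromosomes of the 115 genes were counted for 113 of them. Chromosomes 1 and 4 held 11 each (9.73%, against 5.71% and 6.41% of all genes). Chromosome 6 held 2 and chromosome 8 held 1, Nqo1. The median difference of mutant minus wild type over all genes of these chromosomes was -0.22 and -0.34 on day 3, and -0.26 and -0.45 with the empty vector of the Dnmt1 experiment. For knockout minus wild type, the median over chromosome 8 was -0.08 on day 3, -0.38 with the empty vector and -0.39 with Dnmt1.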
